A study of Mus musculus with 24 samples.

Results

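The 1000 widest accessible regions at promoters of protein-coding genes were described in epithelial cells of the mouse small intestine. They were taken from a common set of 150646 ATAC-seq peaks, the consensus peaks of all libraries. A peak was eligible if its annotation class was promoter, its nearest gene was protein-coding and its centre lay within 1000 bp of that gene's transcription start site (TSS). Of 10750 eligible peaks, belonging to 8948 genes, the 1000 with the largest interval length were the members. The rule used peak width and annotation and not the counts of either age, though the peaks were called on these same libraries. Each member belonged to a different gene, so 11.2% of the genes with an eligible peak had a member.

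ATAC-seq finds open chromatin by letting the Tn5 transposase insert sequencing adapters where DNA is free of nucleosomes. The study compared C57BL/6JRj mice labelled aged with mice labelled young. Cells were released from the small intestine with EDTA and trypsin and then sorted for the epithelial surface protein EpCam and against the leukocyte protein CD45. Ages of 20 to 22 months and 2 to 3 months are stated in the series text in sentences about companion assays. There were 6 libraries, aged 1, 2 and 4 and young 1, 2 and 4, and the 24 sample records are 4 sequencing lanes of each. The labels do not say that each library came from its own mouse, so p-values measure only the spread between these libraries, which may be technical.

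Total counts in peaks ran from 6149680 in young 4 to 23935291 in aged 2. Of 15 epithelial marker genes 13 had a peak within 1000 bp of the TSS, and none of these peaks was a member. Their summed level was 495 to 554 CPM (read counts divided by the scaled library size) in aged and 499 to 585 CPM in young libraries. Leukocyte markers had such a peak for 2 of 16 genes, with sums of 5.31 to 8.97 CPM in aged and 4.30 to 5.50 CPM in young libraries, and Ptprc, which encodes CD45, had none. Stromal and endothelial markers had one for 6 of 14 genes, at 21.1 to 21.6 CPM in aged and 20.5 to 22.8 CPM in young libraries. Neuronal and glial markers had one for 3 of 7 genes, at 27.2 to 29.8 CPM in aged and 25.6 to 28.0 CPM in young libraries. The part of other cell types in the results at members was not tested.

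An active promoter keeps a stretch around its TSS clear of nucleosomes, where the general transcription factors and RNA polymerase II assemble. Many mammalian promoters lie in CpG islands, stretches rich in G, C and the CpG dinucleotide that are usually free of DNA methylation and tend to be accessible in many cell types. Promoters of tissue-specific genes more often lack an island and can carry a TATA box, a short element upstream of the TSS that sets where polymerase starts.

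The members are best seen from their DNA. RefSeq promoter windows on GRCm38.p6, which run from 250 bases before to 50 bases after a TSS, could be matched to 815 members. Of these, 774 were matched through their own gene and 41 through the start of another gene. The start had to lie within 1000 bp of the peak's centre, so it could fall outside the peak. The 250 bases before the start are shown for 7 members, 5′ to 3′ on the gene's strand, with every CpG in capitals. The first pair are the windows of the 2 widest members, 1190002N15Rik (RefSeq symbol Dipk2a, chr9:94538082-94538331, minus strand) and Sema4c, which encodes a semaphorin (chr1:36557558-36557807, minus strand).
1190002N15Rik: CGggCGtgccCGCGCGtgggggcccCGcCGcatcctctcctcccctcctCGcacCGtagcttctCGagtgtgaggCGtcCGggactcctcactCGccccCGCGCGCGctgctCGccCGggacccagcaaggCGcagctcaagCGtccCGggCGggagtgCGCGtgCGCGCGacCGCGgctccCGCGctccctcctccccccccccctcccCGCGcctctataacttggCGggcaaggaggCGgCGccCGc
Sema4c: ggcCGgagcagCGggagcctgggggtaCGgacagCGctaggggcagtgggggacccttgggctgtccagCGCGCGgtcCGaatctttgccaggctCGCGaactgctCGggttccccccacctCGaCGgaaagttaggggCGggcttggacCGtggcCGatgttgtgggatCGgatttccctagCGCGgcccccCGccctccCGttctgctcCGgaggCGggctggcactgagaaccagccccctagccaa
The stretch at 1190002N15Rik held 38 CpG and 77.6% G or C. That at Sema4c held 23 CpG and 69.6% G or C.

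Sp1 is shown because its peak had the most counts per kb of all members (chr15:102406066-102406315, plus strand). Pcbp1 and Cyba had the smallest p in the age comparison, in the lower and the higher direction, among members with a window of their own (chr6:86526190-86526439 and chr8:122432941-122433190, both minus strand).
Sp1: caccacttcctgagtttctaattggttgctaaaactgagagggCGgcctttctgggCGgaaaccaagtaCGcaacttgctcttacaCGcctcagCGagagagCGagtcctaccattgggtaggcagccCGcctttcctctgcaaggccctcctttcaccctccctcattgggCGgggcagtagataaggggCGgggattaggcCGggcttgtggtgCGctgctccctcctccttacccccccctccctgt
Pcbp1: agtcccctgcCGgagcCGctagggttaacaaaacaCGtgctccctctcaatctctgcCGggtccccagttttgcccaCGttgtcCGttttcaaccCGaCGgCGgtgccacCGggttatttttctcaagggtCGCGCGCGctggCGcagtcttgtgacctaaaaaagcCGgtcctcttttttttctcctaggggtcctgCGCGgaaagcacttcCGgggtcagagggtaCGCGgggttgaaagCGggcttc
Cyba: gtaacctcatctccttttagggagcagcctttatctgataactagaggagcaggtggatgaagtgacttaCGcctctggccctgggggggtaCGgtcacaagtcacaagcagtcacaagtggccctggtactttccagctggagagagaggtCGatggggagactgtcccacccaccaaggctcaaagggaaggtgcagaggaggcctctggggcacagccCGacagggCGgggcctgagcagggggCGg
The Sp1 stretch held 11 CpG, that of Pcbp1 22 and that of Cyba 6. Sp1 encodes a zinc finger factor that binds the GC box, GGGCGG, and its own window held that element. Klhl35, the member with the smallest p of all, is named only.

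Sap18 and Clca4b mark the ends of the range of CpG content (chr14:57797939-57798188, plus strand, and chr3:144932530-144932779, minus strand).
Sap18: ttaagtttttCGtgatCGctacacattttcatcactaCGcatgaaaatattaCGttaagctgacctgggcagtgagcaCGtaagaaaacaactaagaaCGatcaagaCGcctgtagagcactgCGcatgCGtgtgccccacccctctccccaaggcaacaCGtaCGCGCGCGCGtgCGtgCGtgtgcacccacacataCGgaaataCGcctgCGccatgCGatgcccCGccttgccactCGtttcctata
Clca4b: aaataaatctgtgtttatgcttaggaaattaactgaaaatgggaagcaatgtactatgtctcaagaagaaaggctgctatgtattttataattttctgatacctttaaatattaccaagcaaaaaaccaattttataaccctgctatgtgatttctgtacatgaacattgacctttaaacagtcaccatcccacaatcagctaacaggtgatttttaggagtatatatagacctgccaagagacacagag
Sap18, a subunit of histone deacetylase and splicing complexes, had the highest ratio of observed to expected CpG among members, 1.35 over its 300-base window. Clca4b, a member of the CLCA family, had a ratio of 0, and its window held the letters TATAAA on the strand opposite to the gene only. The Clca4b peak did not cover the TSS, with its centre 936 bp upstream, so this window lies beside the peak and not in it.

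Member windows were rich in CpG compared with all 21263 windows of protein-coding genes in the RefSeq table. The median ratio of observed to expected CpG was 0.858 in members and 0.567 in all windows, and the median share of G or C was 66.3% against 56.3%. A ratio of at least 0.6 was found in 711 of 815 member windows, 87.2%, and in 47.7% of all windows. A ratio under 0.3 was found in 16 member windows, 1.96%, and in 32.0% of all windows. Fewer than 80% of the narrower eligible peaks had a window, so these shares are set against all protein-coding windows, of which the member windows are a part, and no test was made. Those windows also cover genes without an eligible peak, as only 8948 genes had one. The shares here and for the motifs below therefore do not set members against other open promoters.

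Short motifs were counted on both strands of the 300-base windows as exact letters. The GC box, GGGCGG, which itself contains a CpG, was present in 77.2% of member windows and 46.2% of all windows. Motifs containing CpG that were more frequent in members were the ETS factor motif CCGGAAG (17.2% against 11.6%), the NRF1 motif GCGCATGC (6.63% against 3.52%), the E-box CACGTG (10.9% against 7.84%), the ZBTB33 motif CTCGCGAG (3.31% against 1.24%) and the cyclic AMP response element TGACGTCA (2.94% against 2.234%). AAGATGGC, the motif of YY1, has no CpG and was found in 5.28% of member and 3.05% of all windows. The CCAAT box was as frequent in both, 38.0% and 38.2%.

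Motifs rich in A and T were less frequent in member windows. The TATA box was found in 4.66% of them and in 12.6% of all windows. For factors with a known role in the intestine the shares were 3.44% against 9.65% for the GATA motif AGATAA, 0.859% against 2.26% for the CDX motif TTTATGG, and 1.104% against 2.31% for the HNF1 motif GTTAATNA. AP-1, searched as TGANTCA, was found in 3.56% against 6.99%. HNF4 was searched as CAAAGTCC, which is not rich in A and T. It was found in 9 member windows, 1.104%, against 1.44%. These matches describe letters in the windows and show no binding.

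A second gene start nearby was more frequent at member windows than over all windows. In 228 of 815 member windows, 28.0%, another gene started on the opposite strand within 1000 bp upstream, against 12.3% of all windows, which include genes without an eligible peak. Of the 1000 peaks, 264 contained at least 2 RefSeq gene starts. A choice by width favours this count, and it is given for members only. In 176 of the 1000 members, 17.6%, the promoter class named another gene than the nearest TSS, against 10.7% of the other eligible peaks, so the gene given for such a peak is 1 of 2 candidates. Ggnbp2, Pcid2 and Pqlc2 are such cases among the 8 widest, each with 2 starts inside the peak.

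Width in members ranged from 1001 to 1990 bp with a median of 1143.5 bp, against 456.5 bp in the other 9750 eligible peaks and 223 bp over all peaks. The widest members were those of 1190002N15Rik (1990 bp), Sema4c (1944 bp), Ggnbp2 (1934 bp), Jdp2 (1922 bp), Zswim6 (1900 bp), Rgs9bp (1867 bp), Pcid2 (1850 bp) and Pqlc2 (1836 bp). Among them are Jdp2, a repressor that dimerises with Jun, and Pcid2, a factor of mRNA export. The narrowest members were Ddx39b, an RNA helicase, at 1002 bp and Pdpr, a regulator of pyruvate dehydrogenase, at 1001 bp. Tsr3, Atat1 and Rnf114 had the same width as Pdpr and were left out by the order of peak names. Otulin, 1110038F14Rik and B4galt1, at 1000 bp, were the next below. Another 1629 peaks outside the members were at least as wide, 530 of them in the promoter class, 445 in introns, 333 in exons, 268 intergenic and 53 at transcript ends.

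The members reached over the TSS on both sides, which the choice by width largely sets in advance. The median centre stood at -67.5 bp from the TSS in members and at -67 bp in the other eligible peaks. The TSS lay inside 952 of 1000 members, 95.2%, and inside 61.2% of the other eligible peaks. From the TSS the median member extended 655.5 bp upstream and 515.25 bp downstream, against 355 bp and 181.5 bp in the others, and the centre was upstream in 626 members. At 500 bp downstream of the TSS 53.0% of members and 7.72% of the others still covered the position, and at 500 bp upstream the shares were 76.8% and 19.3%.

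**Figure D1:**
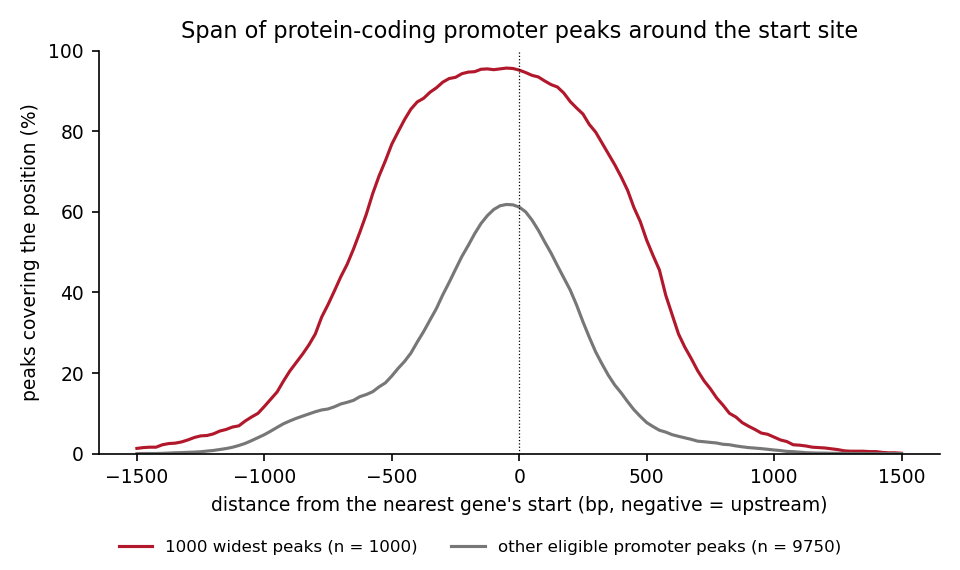
Share of peaks (y axis, %) that cover each position from 1500 bp upstream to 1500 bp downstream of the nearest TSS (x axis), for the 1000 widest protein-coding promoter peaks (red) and the other 9750 eligible peaks (grey). At the TSS the lines stand at 95.2% and 61.2%, and at 500 bp downstream at 53.0% and 7.72%.

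Members came from every autosome and from X. Chromosomes 7, 2 and 11 held the most, with 77, 76 and 73. As a share of a chromosome's eligible peaks, chromosome 12 was highest, with 13.2%, and X was lowest of those with a member, with 17 of 287 or 5.92%. None of the 2 eligible peaks on Y was a member.

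Levels are CPM with TMM scaling of the libraries (edgeR's trimmed mean of M-values), averaged over all 6, and CPM per kb divides this by the peak's width. The median member had 43.3 CPM and 36.6 CPM per kb, against 10.9 CPM and 25.5 CPM per kb in the other eligible peaks. Per kb the members spanned 5.01 to 176. Over all 10750 eligible peaks wider ones had more counts per kb (Spearman's rho 0.52), but among the members width and level per kb were barely related (rho -0.06). Both values are across peaks that share the same libraries, and the width comes from peaks called on these reads. With the eligible peaks in 10 equal groups by width, the level per kb was highest in the third group, at 43.1 CPM per kb, and the widest group had 36.6 CPM per kb.

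The 5 densest members, by CPM per kb, were Sp1 with 176, Dnpep, an aspartyl aminopeptidase, with 159, Opa3, a mitochondrial protein, with 150, Tmem55b with 134 and Rab40c, a small GTPase, with 131. For Sp1 the level was 195, 176 and 173 CPM in aged libraries 1, 2 and 4, against 197, 179 and 177 CPM in young libraries 1, 2 and 4. The ages overlapped, and library 1 was the highest of each age.

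The 5 sparsest members were Hcn4, a pacemaker channel of heart and neurons, with 5.01 CPM per kb, Prkd3, a protein kinase, with 5.79, Zc3h12c with 6.10, the fatty acid transporter gene Slc27a3 with 6.10 and the phosphatase gene Ppm1e with 6.17. At Hcn4 the level was 3.82, 5.47 and 4.60 CPM in aged libraries 1, 2 and 4, against 5.22, 5.20 and 6.85 CPM in young libraries 1, 2 and 4. These values overlapped between the ages as well.

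Aged and young libraries were compared at all 129588 peaks that passed a filter on low counts, with edgeR's quasi-likelihood test and Benjamini-Hochberg adjustment, and a peak was called at an adjusted p below 0.05. All 1000 members passed the filter. Of them 1 was called, Klhl35, against 1.6% of all tested peaks. No member was called higher in aged, against 1.07% of all tested peaks, and 1 was called lower, against 0.528%. At an unadjusted p under 0.05 edgeR gave 9 members, 5 higher and 4 lower, or 0.9%, against 8.82% of all tested peaks. The members' median SE in this fit, 0.117, was larger than the SD of their log2 fold changes, 0.094. The low number of small p-values thus does not by itself show that members are stable with age. DESeq2's Wald test called the same 1 member and gave 8 at an unadjusted p under 0.05. The number of members at an unadjusted p under 0.05 moved with the setting, from 6 without aged 4 to 73 without young 1, and was 19 without aged 1. It was 56 with the replicate number as a block, 68 with the block and cyclic loess offsets, and 39 with cyclic loess alone. Scaled to the counts in the eligible promoter peaks it was 42, scaled to those in the members 37, with no TMM factor 24, and thinned to the shallowest library 21. Over all tested peaks the same settings gave from 6584 of 86648, when thinned, to 16276 of 129588, with the block. Without aged 4 the number was 9744 of 136117, and without young 1 it was 12505 of 133834.

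Klhl35 encodes a kelch-like protein, a family of which several members are adaptors of cullin ubiquitin ligases. Its peak, at chr7:99468131-99469216 on GRCm38, is 1086 bp wide, with its centre 290 bp upstream of the TSS. The level was 8.32, 9.19 and 7.89 CPM in aged libraries 1, 2 and 4, against 19.5, 15.6 and 13.7 CPM in young libraries 1, 2 and 4. All aged libraries lay below all young ones. The log2 fold change, aged over young, was -0.97 (SE 0.14, edgeR adjusted p 5.09e-05). It was called in each of the 17 other settings of scaling, filter, test, block and left-out library, with log2 fold changes from -1.05 to -0.80. Its peak was sparse for a member, at 11.4 CPM per kb.

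Other tested peaks assigned to Klhl35 did not pass the test. A peak in the promoter class at a centre 2885 bp upstream had a mean of 2.40 CPM in aged and 2.48 CPM in young libraries (log2 fold change -0.00, edgeR adjusted p 0.9997). A peak 33971 bp upstream, inside an intron of another gene, had 30.0 CPM in aged and 26.5 CPM in young libraries (0.17, adjusted p 0.810). The lower level in aged libraries was thus called at the wide TSS peak and at none of the other tested peaks assigned to the gene.

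The members next in order of p that were higher in aged libraries were not called. Cyba encodes the p22phox subunit of NADPH oxidase, which makes superoxide. Its level was 37.5, 32.3 and 36.6 CPM in aged libraries 1, 2 and 4, against 28.4, 29.6 and 24.4 CPM in young libraries 1, 2 and 4. The ages did not overlap, and the log2 fold change was 0.35 (SE 0.12, edgeR adjusted p 0.179). A narrow peak in the gene's first intron had a log2 fold change of 1.03 (SE 0.34, edgeR adjusted p 0.174), with means of 1.89 CPM in aged and 1.02 CPM in young libraries. Vgll3, a cofactor of TEAD transcription factors, had 6.29, 10.1 and 9.99 CPM in aged libraries 1, 2 and 4, against 6.77, 5.84 and 5.57 CPM in young libraries 1, 2 and 4. Aged 1 lay among the young libraries, and the log2 fold change was 0.52 (SE 0.18, edgeR adjusted p 0.187). Without aged 1 it became 0.70 with an adjusted p of 0.0306.

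Cxadr, a junction protein that is also the receptor for coxsackievirus and adenovirus, had 49.3, 49.8 and 48.6 CPM in aged libraries 1, 2 and 4, against 44.0, 42.5 and 31.1 CPM in young libraries 1, 2 and 4 (log2 fold change 0.31, edgeR adjusted p 0.329). Zyx encodes zyxin, a protein of focal adhesions, and had 54.7, 52.3 and 56.2 CPM in aged libraries 1, 2 and 4, against 48.6, 45.6 and 38.4 CPM in young libraries 1, 2 and 4 (0.29, adjusted p 0.339). In both, the groups did not overlap and young 4, the shallowest library, was the lowest. Bin1, a membrane-bending protein, was also higher in every aged library (log2 fold change 0.31, adjusted p 0.355). Rnf208, a ubiquitin ligase gene whose peak did not cover the TSS, overlapped between ages (0.28, adjusted p 0.576).

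On the lower side, after Klhl35, the smallest p was that of Pcbp1, which encodes a poly(C)-binding RNA protein. It had 25.02, 25.6 and 20.6 CPM in aged libraries 1, 2 and 4, against 34.8, 29.1 and 23.9 CPM in young libraries 1, 2 and 4. Young 4 lay below aged 1 and 2, so the groups overlapped, and the log2 fold change was -0.33 (SE 0.13, edgeR adjusted p 0.348). Rpl37a, a protein of the large ribosomal subunit, had 17.9, 19.8 and 15.3 CPM in aged libraries 1, 2 and 4, against 21.6, 21.2 and 22.1 CPM in young libraries 1, 2 and 4. Its groups did not overlap, and the log2 fold change was -0.28 (SE 0.12, edgeR adjusted p 0.451). Ubr4, a ubiquitin ligase, Taldo1, a transaldolase of the pentose phosphate pathway, and Fras1, a protein of the basement membrane, followed at log2 fold changes of -0.25, -0.23 and -0.27, with adjusted p from 0.566 to 0.627. An intergenic peak assigned to Fras1, 42636 bp upstream, was called in the other direction (log2 fold change 0.88, edgeR adjusted p 0.0326). A Fras1 intron peak went the same way as the member without a call (-0.63, adjusted p 0.0705).

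**Figure D2:**
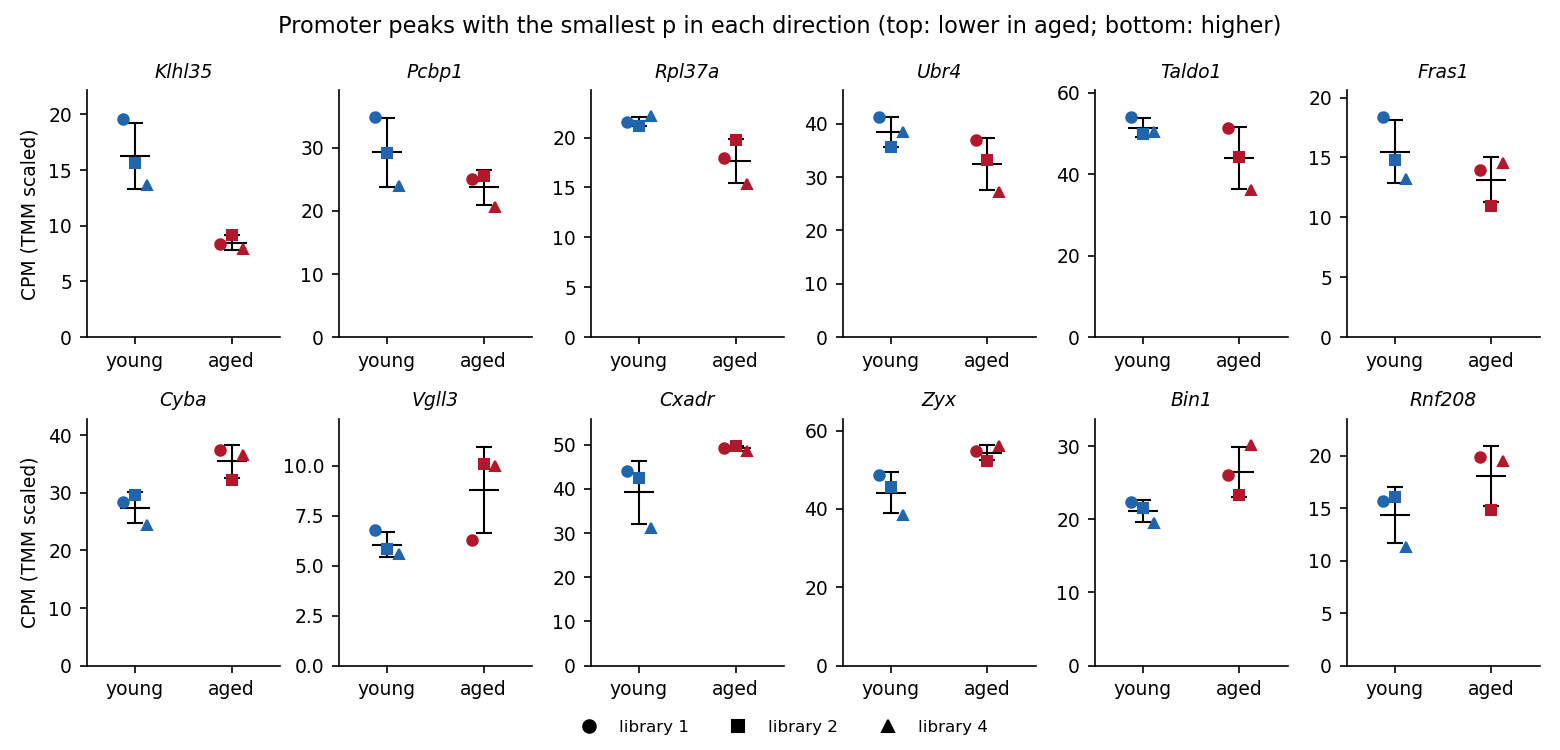
Level (y axis, TMM-scaled CPM, from 0) in each library at the 12 members with the smallest p, 6 lower (top) and 6 higher (bottom) in aged libraries, with circles, squares and triangles for libraries 1, 2 and 4 and a bar for the mean ± SD (n = 3 per age). Klhl35, the 1 called member, lies between 7.89 and 9.19 CPM in aged and between 13.7 and 19.5 CPM in young libraries, while the other panels differ less or overlap.

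Libraries with the same number deviated together, and with that number as a block edgeR called 6 members. Higher in aged libraries were 4, Cxadr (log2 fold change 0.31, adjusted p 0.00458), Cyba (0.34, adjusted p 0.00487), Zyx (0.28, adjusted p 0.00873) and Lmbr1 (0.26, adjusted p 0.00976), or 0.4% against 1.99% of all tested peaks. Lower were 2, Klhl35 (-0.94, adjusted p 2.42e-09) and Pcbp1 (-0.30, adjusted p 0.0343), or 0.2% against 1.1% of all tested peaks. Lmbr1, a membrane protein gene whose intron holds a limb enhancer of Shh, had 80.2, 69.5 and 65.1 CPM in aged libraries 1, 2 and 4, against 72.3, 60.9 and 45.9 CPM in young libraries 1, 2 and 4. Within each number its aged library was higher, but the ages overlapped.

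Most members were measured closely enough to bound the difference. The log2 fold changes of members had a median of -0.01 and an SD of 0.09, against a median of -0.00 and an SD of 0.39 over all tested peaks. The 5th and 95th percentiles of members were -0.15 and 0.13. Under edgeR the 95% interval of the fold change lay within 1.5-fold in either direction for 994 of 1000 members, for 70.0% of the other eligible peaks and for 39.9% of all tested peaks. Only Klhl35 and Vgll3 had a log2 fold change beyond 0.5 in size, and 12 members lay beyond 0.25.

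**Figure D3:**
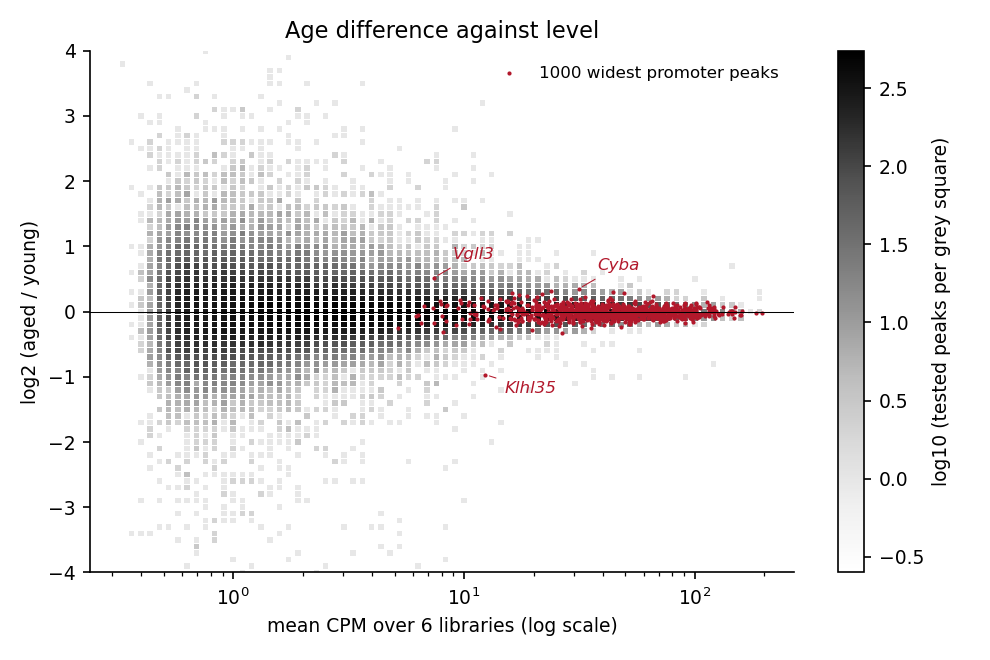
Log2 fold change, aged over young (y axis), against mean CPM over the 6 libraries (x axis, log scale), with tested peaks as grey squares shaded by their number and the 1000 members as red points. The y axis stops at 4 in either direction. The members lie at the high end of the level range and close to 0, with Klhl35 at -0.97 and Vgll3 at 0.52 apart from the rest.

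Promoter peaks of like level outside the members also had a low share of calls. Among other eligible promoter peaks with a level between the members' 5th and 95th percentile, 15.2 and 100.5 CPM, 6 of 4115 were called, 0.146%. Non-promoter peaks in the same range of level were called in 70 of 10087 cases, 0.694%, and the other peaks as wide as the members in 10 of 1629, 0.614%. The SD of the log2 fold change was 0.10 in those like-level promoter peaks and 0.13 in the like-level non-promoter peaks, against 0.09 in members. Close bounds were not particular to members either. The 95% interval lay within 1.5-fold for 99.2% of the like-level promoter peaks and 97.5% of the like-level non-promoter peaks. Among the other peaks as wide as the members the share was 97.2%. In the 10 equal groups by width, the called share was 0.093% in the widest and reached 3.07% in the seventh group, where the median level was 6.58 CPM. These shares were not tested against each other.

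**Figure D4:**
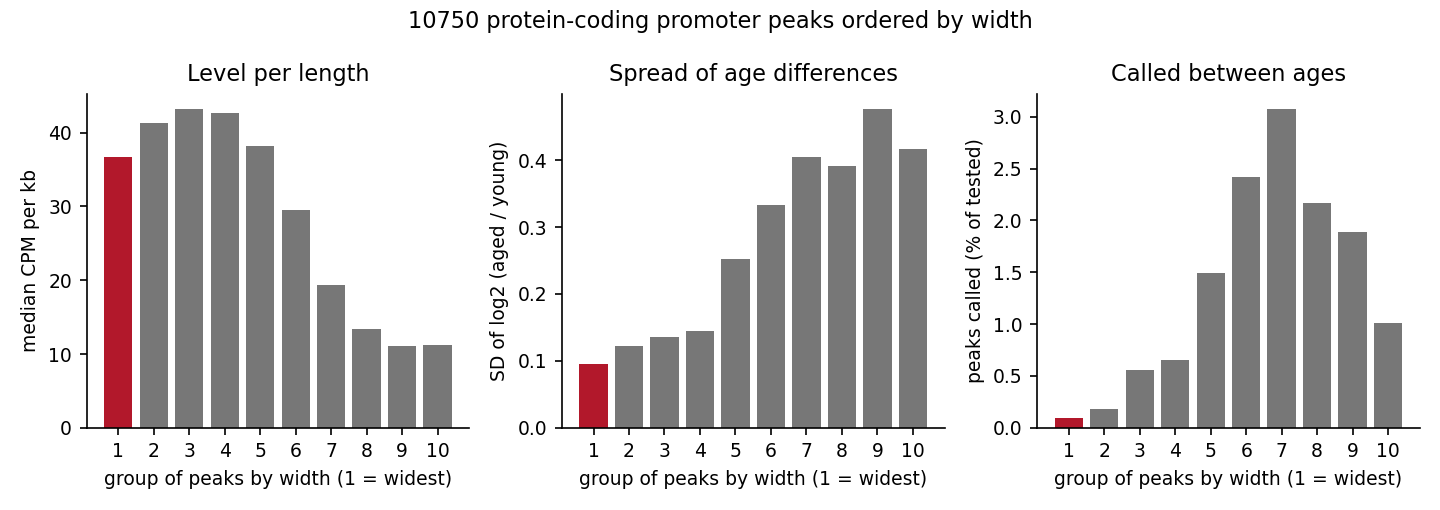
The 10750 eligible promoter peaks in 10 equal groups by width (x axis, 1 = widest, red), with the median CPM per kb, the SD of the log2 fold change and the share of tested peaks called by edgeR (y axes, from 0). The widest group has an SD of 0.10 and 0.093% called, and the seventh group has an SD of 0.40 and 3.07% called.

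Members moved together from library to library. Relative to each member's mean over the 6 libraries, the median member lay 0.18 higher on the log2 scale in young 1 and 0.15 lower in young 4, and 966 members were above their mean in young 1 and 880 below it in young 4. The same shift in aged 1 was 0.10 and in aged 4 -0.08. The SD of log2 CPM over the 6 libraries was 0.146 for the median member and 0.0857 once each library's median was taken off. Young 1 and young 4 are also a deep and the shallowest library, and the part of depth in this shift was not tested.

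How many members separated the ages moved with the scaling of the libraries, and the part of the shared shift in this was not tested. With TMM scaling the 3 aged libraries lay wholly above or wholly below the 3 young ones in 23 members, 12 higher and 11 lower, or 2.3% against 13.9% of all tested peaks. Scaled to each library's counts in the eligible promoter peaks, an alternative chosen after the data were seen, it was 137 members, 13.7%, with 62 higher and 75 lower, against 12.003% of all tested peaks. Scaled to the counts in the members themselves, also chosen after the data were seen, it was 133 members, 13.3%, with 67 higher and 66 lower, against 11.4%. In the like-level promoter peaks the share moved in the same way, from 4.398% with TMM to 13.1% and 13.4%. The calls moved less, since edgeR called Klhl35 with either scaling and, scaled to promoter counts, also Zyx (log2 fold change 0.30, adjusted p 0.0494).

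As a whole the members took shares of counts that overlapped between the ages. They held 5.06%, 4.86% and 4.68% of counts in peaks in aged libraries 1, 2 and 4, against 5.30%, 4.82% and 4.55% in young libraries 1, 2 and 4. The difference, aged minus young, was -0.0262 percentage points (exact two-sided permutation test, p = 1, where 0.1 is the smallest p that 3 against 3 allows). The log2 ratio of counts in members to counts in the other eligible peaks was -1.91, -1.91 and -1.93 in aged libraries, against -1.89, -1.92 and -1.95 in young ones, a difference of 0.0023 (exact permutation p = 1). Both differences were smaller than the spread within an age, and each changed sign when some single libraries were left out.

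Within the members, the widest 250 were compared with the narrowest 250. The log2 ratio of their counts was 0.29, 0.31 and 0.32 in aged libraries 1, 2 and 4, against 0.28, 0.29 and 0.25 in young libraries 1, 2 and 4. The ages did not overlap, though aged 1 and young 2 nearly met, and the difference was 0.0336 (exact permutation p = 0.1, the smallest possible, and 0.3 adjusted over the 3 such comparisons). This difference did not pass the threshold, and the design could not have passed it. The median log2 fold change was 0.00 in the widest 250, with 130 members above 0, and -0.04 in the narrowest 250, with 82 above 0. GC content of the promoter window was weakly related to the fold change among members (Spearman's rho 0.20 over 815 members that share the same libraries), with a median of 0.01 in the 204 members of highest GC and -0.04 in the 203 of lowest GC.

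Gene groups were read from 25 lists, and shares are of each list's genes with an eligible peak, against 11.2% of all 8948 such genes. No member of any list was called by edgeR, and only Rpl37a among them had an unadjusted p under 0.05.

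Transcription factors that act in the gut were represented by 5 of 28 genes, 17.9%. Ppara, the receptor that drives fatty acid oxidation genes, had the widest peak, 1503 bp at 42.4 CPM per kb. Nr5a2, a nuclear receptor of crypt and pancreas, had 1259 bp at 16.6 CPM per kb, and Nr1i2, the xenobiotic sensor PXR, had 1250 bp at 28.8 CPM per kb. The bile acid receptor gene Nr1h4 and the pioneer factor gene Foxa2 were also members. Their log2 fold changes ran from -0.16 to 0.15.

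Immediate early genes, which respond to stimuli within minutes, gave 6 of 28, or 21.4%. Egr1 had 1606 bp at 71.6 CPM per kb, the Maf family gene Maff 1438 bp at 46.5, and Zfp36l2, which encodes a protein that destabilises mRNA, 1329 bp at 69.1. Dusp1, a phosphatase of MAP kinases, Ier3 and Fos were the others. Of the NF-kB and TNF list 3 of 14 genes had a member, and all were NF-kB subunits, Rel at 1318 bp, Relb at 1316 bp and Rela at 1157 bp. The log2 fold changes were 0.12, 0.06 and 0.10 for Rel, Relb and Rela, each with an SE of 0.12 to 0.13.

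Wnt and Notch pathway genes gave 5 of 23, 21.7%. Tcf7, a transcription factor of Wnt signalling, had 1270 bp, Maml1, a coactivator of Notch, 1214 bp, and the Wnt receptor gene Fzd5 1198 bp, with 14.9, 49.0 and 78.4 CPM per kb. Lgr5, the receptor that marks intestinal stem cells, was a member with 1059 bp at 18.02 CPM per kb. Its level was 19.3, 18.8 and 17.5 CPM in aged libraries 1, 2 and 4, against 21.4, 20.8 and 16.7 CPM in young libraries 1, 2 and 4, which overlapped (log2 fold change -0.11, edgeR adjusted p 0.932). Hey1, a Notch target, was the fifth.

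Other transcription factor families varied. Sp and Kruppel-like factors gave 3 of 16, Sp4 with 1587 bp, Sp1 and Klf9, with a median of 76.0 CPM per kb. E2F and ETS factors gave 2 of 16, E2f1 and Etv4, and FOX and SOX factors 2 of 37, Foxj2 and Foxa2. Of 30 developmental regulators that Polycomb complexes bind in many cell types, Nkx2-2 was the 1 member, with 1016 bp at 7.88 CPM per kb. Its level was 5.73, 10.2 and 7.21 CPM in aged libraries 1, 2 and 4, against 7.23, 8.47 and 9.24 CPM in young libraries 1, 2 and 4. None of 13 Hox genes had a member, and the median width of their widest eligible peaks was 183 bp. Zinc finger genes of the Zfp series gave 18 of 193, 9.33%, led by Zfp668 with 1830 bp, Zfp524 with 1692 bp and Zfp335 with 1473 bp. Zfp36l2 stands in both this list and the immediate early list.

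Genes that handle RNA had the largest shares among the lists. Translation factors gave 10 of 41, 24.4%, led by Eif4enif1 with 1345 bp, Eif3a with 1334 bp and Eif1ad with 1214 bp. Splicing and RNA-binding factors gave 16 of 68, 23.5%, led by Hnrnpa0 with 1438 bp, Rbm39 with 1367 bp and Srsf7 with 1364 bp. Ribosomal protein genes gave 7 of 59, 11.9%, close to the share of all genes, with Rpl10a the widest at 1530 bp, followed by Rpl10 with 1099 bp and Rpl32 with 1039 bp. Reads from near-identical pseudogene copies could add to or be lost from such genes, and how such reads were treated is not given here.

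Point estimates in these groups leaned to lower values in aged libraries without a call. Members of a list share the same 6 libraries, so such counts are not separate observations. Some lists leaned the other way, such as the NF-kB and TNF list with 3 of 3 members above 0. Of the splicing and RNA-binding members 15 of 16 had a log2 fold change below 0, with a median of -0.11, against 559 of 1000 members and a median of -0.01. The 1 exception was Celf2, at 0.16. Without young 1 the splicing list had 9 members below 0 and 7 above. Ribosomal protein members were below 0 in 6 of 7, with a median of -0.15, and the members of the respiratory chain in 5 of 5, with a median of -0.10. Translation factor members were below 0 in 8 of 10, with a median of -0.07. Rbm39, for instance, had 54.7, 51.2 and 45.4 CPM in aged libraries 1, 2 and 4, against 61.3, 53.4 and 51.4 CPM in young libraries 1, 2 and 4, and the groups overlapped (log2 fold change -0.14, SE 0.11, edgeR adjusted p 0.859). Without young 1 the medians were -0.01 for the splicing and ribosomal lists, 0.02 for the respiratory chain and 0.07 for translation factors, and the median of all members then was 0.09. Over all other settings, left-out libraries included, the median of the splicing list minus that of all members lay between -0.12 and -0.06.

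Respiratory chain genes gave 5 of 56 members, 8.93%, Ndufb5 with 1270 bp, Ndufa10 with 1125 bp, Atp5g3, Uqcrq and Ndufb3. Proteasome subunits gave 3 of 26, Psme1, Psma7 and Psmd3. Ubiquitin ligases, their partners and deubiquitinases gave 27 of 150, 18%, led by Fbxl20 with 1810 bp, Fbxo18 with 1710 bp and Trim7 with 1634 bp. Heat shock and unfolded protein response genes gave 4 of 25, among them Hspd1 with 1296 bp, Pdia3 with 1204 bp and Dnajb1 with 1182 bp at 102 CPM per kb.

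Chromatin regulators gave 9 of 54, 16.7%, among them the heterochromatin protein gene Cbx3 with 1417 bp and the deacetylase gene Sirt1 with 1356 bp. Sirt1 is often studied in ageing, and its level was 42.2, 40.0 and 35.9 CPM in aged libraries 1, 2 and 4, against 45.2, 38.0 and 32.8 CPM in young libraries 1, 2 and 4. The groups overlapped, with the highest and the lowest value both in young libraries (log2 fold change 0.01, SE 0.12, edgeR adjusted p 0.998). Replication-dependent histone genes gave 3 of 43, Hist1h2bn, Hist2h2be and Hist1h2be, a family of near-identical copies in which reads may be split.

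The remaining lists had shares below the 11.2% of all genes. Solute carriers gave 19 of 184, 10.3%, led by the mitochondrial citrate carrier gene Slc25a1 with 1697 bp, Slc37a1 with 1556 bp and Slc4a7 with 1495 bp. Slc37a1 had 45.1, 46.5 and 42.3 CPM in aged libraries 1, 2 and 4, against 41.6, 41.3 and 34.2 CPM in young libraries 1, 2 and 4, which did not overlap (log2 fold change 0.18, edgeR adjusted p 0.751). Junction and brush border genes gave 2 of 22, among them Cldn3, a gene of tight junctions, with 1170 bp. Cell cycle genes gave 2 of 21, Ccne2 and E2f1, and the clock list 1 of 13, Nfil3. None of 20 interferon and antigen presentation genes and none of 6 olfactory receptor genes had a member, with median widths of the widest eligible peak of 672.5 bp and 179.5 bp, against 586 bp over all genes.

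**Figure D5:**
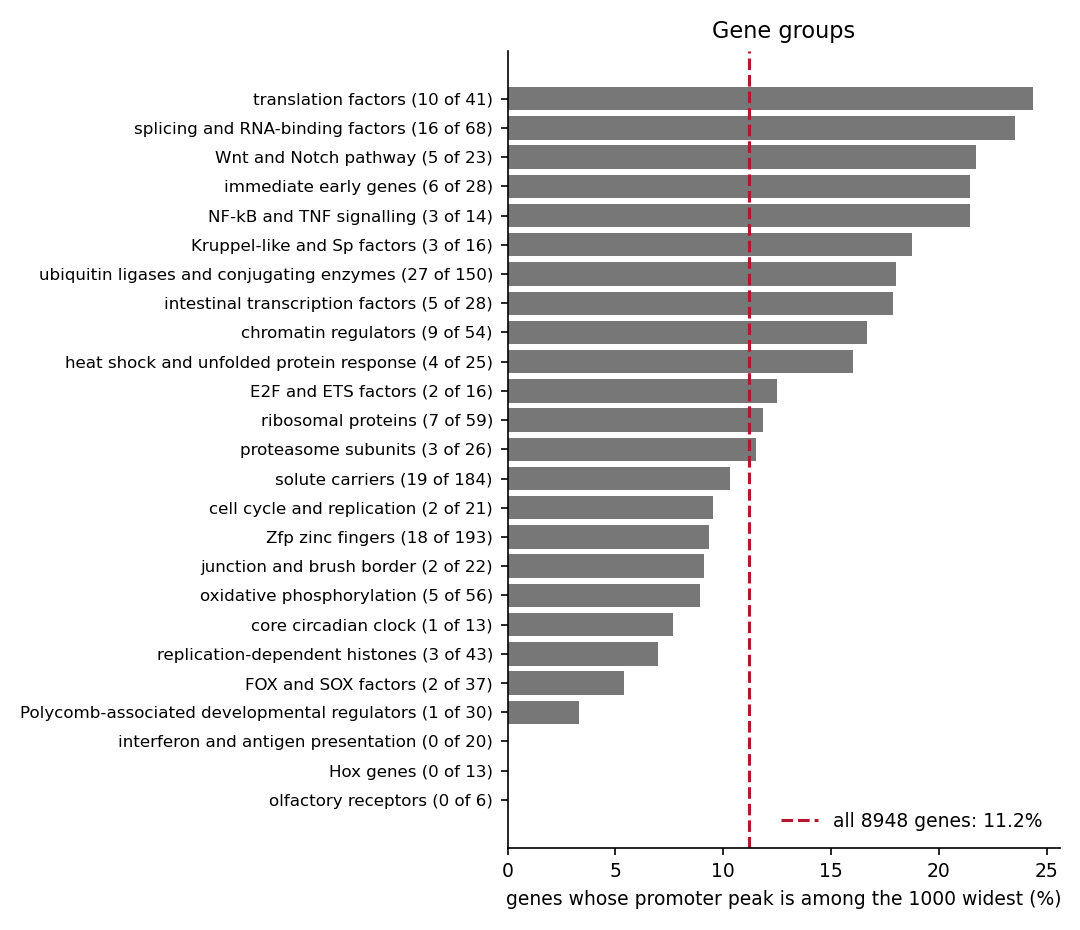
Share of each list's genes with an eligible promoter peak (x axis, %, from 0) whose peak is among the 1000 widest, with the counts in brackets beside each of the 25 lists and a dashed line at 11.2%, the share over all 8948 genes. Translation factors and splicing and RNA-binding factors stand highest, at 24.4% and 23.5%, and 3 lists have no member.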

How the data were processed

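The deposited values are raw counts of 6 libraries over consensus peaks, with a companion table of each peak's position, class, nearest gene and distance to the TSS. Per the submitters' processing notes the authors used BWA 0.7.17-r1188, MACS2 2.2.7.1 and featureCounts 2.0.1, beside Trim Galore 0.6.4, Picard 2.23.1 and other utilities, and the build was GRCm38. The settings of the peak caller, how peaks were merged, the counted unit (read or fragment), any Tn5 shift and the treatment of reads with several matches were not given in the sources used here. Coordinates are GRCm38, counted from 1, and the deposited interval length exceeds the width used here by 1 in every peak.

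Counts were analysed with edgeR 4.0.16 (filterByExpr, TMM, robust quasi-likelihood fit, age as the only term), limma 3.58.1 and DESeq2 1.42.0 in R 4.3.3, and with SciPy 1.17.1 in Python 3.11.15. Log2 fold changes are aged over young, and the SE is the one the test statistic implies. The scripts were tested on simulated data. The members, the lists and the rules were chosen with earlier results of these data known. Genes were named by rule: the 8 widest members, the 5 densest and 5 sparsest, the called member, those with the smallest p up to 6 in each direction, up to 3 of the widest per list (some are not reported here), and the members at the width limit. Lmbr1, Celf2, Slc27a3, Sap18 and Clca4b fall under other rules or were named for their values, as were further list members, Tsr3, Atat1 and 1110038F14Rik.

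Over peaks, aged and young libraries of the same number deviated together from their group means, with correlations of 0.265, 0.199 and 0.148 for numbers 1, 2 and 4, all above the criterion of 0.1, and those of differently numbered libraries at -0.205 to 0.0285. The numbers were therefore taken to pair the libraries, from the data and not from the labels, and values with the replicate block are given where they change a call. RefSeq windows were matched by symbol, synonym or position. Shares over the 25 lists and 14 motifs are descriptions.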

Additional observations from a re-analysis of the deposited data

How the results depend on the processing

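The number of called members rested on few peaks, so small shifts changed it. Against 1 called member (0 higher, 1 lower), the 500 widest peaks held 0 called, at an unadjusted p under 0.05 in 3 by edgeR, and the 2000 widest held 3 (1 higher, 2 lower). In that main fit 2077 of all 129588 tested peaks were called. With the replicate block 6 members were called (4 higher, 2 lower), against 2578 higher and 1420 lower over all tested peaks. Cyclic loess offsets with the replicate block, chosen after seeing the data, gave 7 (4 higher, 3 lower), against 2638 higher and 1353 lower. Taldo1 joined there at an adjusted p of 0.0494 by edgeR. Scaling to counts in the eligible promoter peaks, also chosen after seeing the data, gave 2 (1 higher, 1 lower). Over all tested peaks that scaling called 1025 higher and 475 lower. Leaving out 1 library at a time gave 1 to 2 called, with 0 to 1 higher. Over all 132273 to 137628 peaks tested, those fits called 742 to 1462 higher and 474 to 646 lower. The median log2 fold change of members, -0.01, ran from -0.077 without young 4 to 0.088 without young 1, and was 0.03 without aged 4. The difference in the members' share of counts, -0.0262 percentage points, ran from -0.196 without young 4 to 0.179 without young 1, and was 0.0669 without aged 4. The log2 ratio of members to other promoter peaks differed by 0.0023 and ran from -0.0131 without young 4 to 0.0186 without young 1, and was -0.00068 without aged 1. The ratio of the widest to the narrowest 250 members kept its direction in every setting run, from 0.0219 to 0.0419. All aged libraries lay above all young ones in this ratio, so leaving out 1 library could not have reversed it. The kept direction is therefore no added support. With the replicate block its exact sign-flip p was 0.25, the smallest that 3 pairs allow. The cause of these changes was not tested. Beside the changes named here and in the report, the replicate block changed no other member's call. Depth limits young 4 most, with 6149680 counts.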
